A study of Mus musculus with 12 samples.

Results

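The 9 genes described here encode interferon-inducible GTPases of mouse cells: the guanylate-binding proteins (GBPs) Gbp2, Gbp3, Gbp6, Gbp7 and Gbp9, and the immunity-related GTPases (IRGs) Irgm1, Irgm2, Igtp and Iigp1. They were taken by gene symbol and not by a cutoff on measured values, but with earlier results of these data known. They are 9 of the 56691 genes listed for each cell line. All 9 symbols were found in both tables. The samples were cultured cells of EMT6 and 4T1, which are mouse mammary tumour lines, sequenced as 12 mRNA libraries with 3 in each of 4 groups. These groups were EMT6 knockout cells (EMT6 KO), EMT6 control cells with genotype label WT, 4T1 knockout cells (4T1 KO) and 4T1 control cells with genotype label WT. The knockout carries the label sgNEDD4, by which a guide RNA to Nedd4, the gene of a ubiquitin ligase, is commonly meant. No interferon or other stimulus is named for any group, and the batch label is 1 for every library. The sources used here do not say whether a knockout line is 1 clone or a pool, where the guide lies, or whether a group's 3 libraries are separate cultures. P-values therefore measure only the spread between these libraries, which may be technical.

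GBPs and IRGs are GTPases that assemble on membranes. In mouse cells they are known for cell-autonomous defence: after interferon exposure they gather on the vacuoles of intracellular parasites and bacteria and help to break them open. Their genes are transcribed through interferon receptors, JAK kinases and STAT and IRF transcription factors, which bind interferon-stimulated response elements and gamma-activated sites in promoters.

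The targeted gene was low in every KO library. Nedd4 had 12.1, 11.5 and 12.1 FPKM (counts scaled by exonic length and library total) in EMT6 KO and 122, 121 and 116.5 FPKM in EMT6 control. In 4T1 it had 24.7, 24.9 and 25.3 FPKM in KO and 94.4, 97.6 and 93.5 FPKM in control, so the groups did not overlap in either line. The fall was larger in EMT6, with log2 changes of -3.34 ± 0.06 in EMT6 and -2.01 ± 0.04 in 4T1 (SE). The EMT6 change minus the 4T1 change was -1.32 ± 0.07 (edgeR adjusted p = 5.53e-15). The part of this in the line differences of the members was not tested. Total counts ran from 13705612 to 19761604 per library. A value of 3 counts equals 0.152 to 0.219 CPM (counts per total of the library), and no 2 libraries of a group were identical. As a check of the labelled cell type, the epithelial markers Krt8 and Krt18 were present in all groups, but in EMT6 Cdh1, which encodes E-cadherin, had 0 to 2 counts per library. Epcam was also low in EMT6, at 0.21 to 0.52 FPKM in KO and 1.15 to 1.25 FPKM in control. Of 5 leukocyte markers, 4 (Ptprc, Cd3e, Itgam and Adgre1) were at 0 counts in all EMT6 libraries. The fifth, Csf1r, carried the whole leukocyte sum of 0.94 to 1.1 FPKM in EMT6 KO and 0.4 to 0.58 FPKM in EMT6 control. In 4T1 that list summed to 0.5 to 0.95 FPKM in KO and 0.57 to 1.03 FPKM in control, with Cd3e at 0. The 5 epithelial markers summed to 378 to 392 FPKM in EMT6 KO and 349.7 to 415 FPKM in EMT6 control, and to 1373 to 1451 FPKM in 4T1 KO and 1889.8 to 1969 FPKM in 4T1 control. Most of the EMT6 sums was Krt8, with 343 to 361 FPKM in KO and 273 to 331 FPKM in control. In the test described below, Krt8 was higher in EMT6 KO (log2 change 0.26 ± 0.07, SE). Krt18, Krt7 and Epcam were lower there, at -1.23 ± 0.07, -1.98 ± 0.14 and -1.59 ± 0.32. Krt7 had 0.6 to 0.79 FPKM in EMT6 KO and 2.4 to 3.09 FPKM in EMT6 control. In 4T1 KO, 3 of the 5 markers were lower and 0 higher. The part of these markers in the results below was not tested. The 4 endothelial markers summed to at most 0.03 FPKM in EMT6 KO and 0.02 FPKM in EMT6 control, and to 0.36 to 0.64 FPKM in 4T1 KO and 0.25 to 0.36 FPKM in 4T1 control.

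The promoter stretches of 6 members are shown because they carry sequence forms through which interferon-regulated genes are known to be read. The 120 bases before the annotated start are written 5′ to 3′ on the strand of the gene, from RefSeq in GRCm38.p6. Capitals mark matches to GAAA, any 2 bases and GAAA again, the core of the interferon-stimulated response element, on either strand (TTTC, 2 bases and TTTC when read from the other one), and to the palindrome TTCNNNGAA, the form of a gamma-activated site.
Gbp2, chr3:142620543-142620662, plus strand: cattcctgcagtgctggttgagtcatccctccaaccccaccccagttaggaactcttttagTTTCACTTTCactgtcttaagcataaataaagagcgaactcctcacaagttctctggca
Gbp3, chr3:142559924-142560043, plus strand: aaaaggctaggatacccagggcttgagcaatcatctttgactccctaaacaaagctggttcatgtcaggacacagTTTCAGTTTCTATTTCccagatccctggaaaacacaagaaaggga
Gbp7, chr3:142530216-142530335, plus strand: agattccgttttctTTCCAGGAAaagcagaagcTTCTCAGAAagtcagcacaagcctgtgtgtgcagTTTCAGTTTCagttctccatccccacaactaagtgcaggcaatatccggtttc
Irgm1, chr11:48871421-48871540, minus strand: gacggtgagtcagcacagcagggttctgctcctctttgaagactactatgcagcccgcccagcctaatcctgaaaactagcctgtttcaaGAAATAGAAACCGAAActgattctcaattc
Irgm2, chr11:58214857-58214976, plus strand: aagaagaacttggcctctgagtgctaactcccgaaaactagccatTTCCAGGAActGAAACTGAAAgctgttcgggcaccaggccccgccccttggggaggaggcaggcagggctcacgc
Igtp, chr11:58199436-58199555, plus strand: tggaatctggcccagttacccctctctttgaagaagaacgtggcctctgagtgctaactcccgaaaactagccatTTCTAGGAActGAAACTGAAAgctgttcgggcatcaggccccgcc

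In all, 7 RefSeq windows (250 bases before to 50 after a start) were searched for 6 members, since Gbp3 has a second annotated start. Gbp6 and Gbp9 had no window in the set used. Windows on chromosome 18, where Iigp1 lies, were left out for the listed genes. All 6 searched members held the response-element core in a window, where 1079 of 27025 genes (3.99%) did. Counted by window, 6 of 7 member windows and 3.44% of 32851 windows held it. The window of the second Gbp3 start, which is not printed, held neither the core nor TTCNNNGAA. The match began 59 bases before the start in Gbp2, 53 in Gbp7, 64 in Irgm2 and 34 in Igtp. For Irgm2, unlike the other printed members, bases shortly after the start were not found in a GENCODE M21 transcript of the gene. Gbp3 and Irgm1 each held a pair of overlapping matches, beginning 45 and 39 bases before the start in Gbp3 and 30 and 24 bases before it in Irgm1. TTCNNNGAA was found in 3 of the 6, Gbp7, Irgm2 and Igtp, where 9.55% of genes (8.3% of all windows) held it. In Irgm2 and Igtp it lies shortly before the response-element core, and the windows of these neighbouring genes share identical stretches. The longest, of 61 bases, does not hold the core, but another, of 29 bases, does, so the core matches of Irgm2 and Igtp lie in sequence that both windows share. In Gbp7 it occurs at 106 and 87 bases before the start. Of the 19 other listed family genes, 9 had a window in this search, which left out Gm4951 and Gm4841 on chromosome 18. Of these 9, 6 held the core and 5 held TTCNNNGAA. These matches describe letters in a window, and the files hold no measurement of factor binding.

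In EMT6 cells, all 9 genes were higher in KO than in control, with no overlap between the groups. The increases ran from 1.46-fold for Gbp7 to 8.36-fold for Iigp1. A gene is called changed where the adjusted p of edgeR's quasi-likelihood test, by Benjamini-Hochberg over all 12890 tested genes, is under 0.05. By that rule 9 of 9 members were higher and 0 lower, where 27.9% of all tested genes were called higher, 28.2% lower and 56% in either direction. The libraries of 31.3% of tested genes lay wholly higher in KO without overlap. The median log2 change was 1.36 over the members and 0.001 over all tested genes. A call together with a log2 change of at least 1 was reached by 4.55% of tested genes, and by every member except Gbp2 and Gbp7. Gbp6 passed the low-count filter only through its KO libraries, so that it had to be higher in KO to be tested. Iigp1 had 2 control libraries at or over the cutoff and needed KO libraries as well, though not at a higher level.

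Among the GBPs, Gbp2 was the most abundant. Its protein is a membrane-anchored GTPase that mouse cells load onto Toxoplasma vacuoles. Gbp2 had 108, 115 and 122 FPKM in EMT6 KO and 67.3, 66.9 and 56.5 FPKM in EMT6 control. The lowest KO library thus lay above the highest control, and the log2 change was 0.85 ± 0.07 (SE, n = 3 per group, edgeR adjusted p = 7.53e-08). Gbp3, encoded in the same chromosome 3 cluster and also found on Toxoplasma vacuoles, had 32.2, 36.3 and 30.6 FPKM in EMT6 KO against 9.12, 8.12 and 8.18 FPKM in EMT6 control. Its change of 1.97 ± 0.08 (edgeR adjusted p = 4.71e-12) was the largest among members above 1 FPKM in the control cells. Gbp7, which in mouse macrophages is linked to assembly of the phagocyte oxidase, had 31.3, 33.7 and 29.3 FPKM in KO and 23.3, 21.9 and 19.6 FPKM in control. That made it the smallest change of the 9, 0.55 ± 0.07 on the log2 scale (edgeR adjusted p = 7.08e-06), although the groups remained apart. Gbp9, from the chromosome 5 cluster, had 9.72, 9.1 and 9.1 FPKM in KO and 4.77, 3.67 and 4.48 FPKM in control, a log2 change of 1.12 ± 0.09 (edgeR adjusted p = 2.36e-08). Gbp6, its neighbour on that chromosome, was barely detected. It had 14, 11 and 15 counts in EMT6 KO and 1, 2 and 4 counts in EMT6 control, with a log2 change of 2.39 ± 0.59 (edgeR adjusted p = 0.00198). Of the 50-base stretches of the Gbp6 transcripts, 70.7% also occur in transcripts of other genes, mainly Gm43302, Gbp10 and Gbp4, so that the source of these few reads is uncertain.

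**Figure D1:**
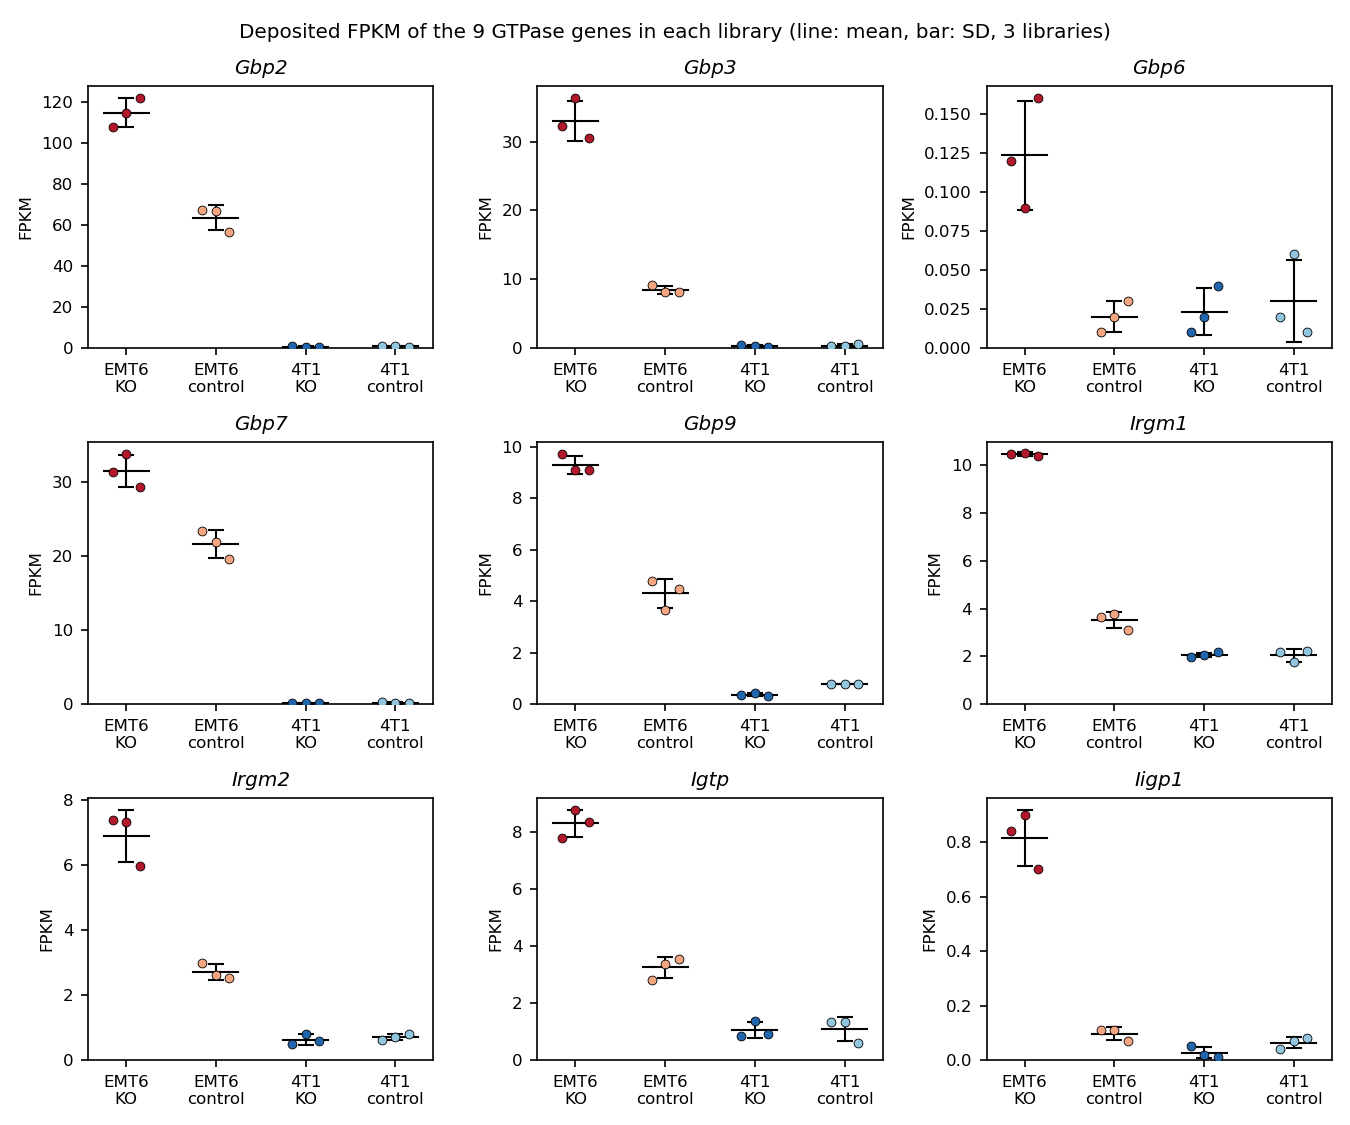
FPKM of each of the 9 GTPase genes (vertical axes, linear and separate for each gene) in the 3 libraries of each group; points are libraries, the horizontal line is the mean and the bar the SD. In every panel the 3 EMT6 KO libraries lie above the 3 EMT6 control libraries, and the 4T1 libraries of Gbp2, Gbp3 and Gbp7 stay under 1 FPKM.

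Among the IRGs, 3 members act in mouse cells mainly as regulators on host membranes, which hold the effector IRGs inactive away from vacuoles. Irgm1, which among other places is found on the Golgi and lysosomes, had 10.5, 10.5 and 10.4 FPKM in EMT6 KO and 3.63, 3.76 and 3.12 FPKM in EMT6 control. This is a 3.0-fold increase, or 1.58 ± 0.08 on the log2 scale (edgeR adjusted p = 1.14e-10), with an SD of 0.0709 FPKM among the KO libraries and 0.338 FPKM among the controls. Irgm2, a regulator at the Golgi, had 7.39, 7.32 and 5.97 FPKM in KO and 2.99, 2.61 and 2.51 FPKM in control (log2 change 1.36 ± 0.11, edgeR adjusted p = 3.61e-08). Igtp, also called Irgm3 and found mainly at the endoplasmic reticulum, had 7.82, 8.78 and 8.36 FPKM in KO and 2.83, 3.38 and 3.55 FPKM in control (log2 change 1.35 ± 0.12, edgeR adjusted p = 1.06e-07). The changes of the 3 regulators thus ran from 1.35 to 1.58. Iigp1, an effector IRG that coats Toxoplasma and Chlamydia vacuoles, started from a far lower level. It had 95, 103 and 64 counts in EMT6 KO and 9, 12 and 8 counts in EMT6 control, which is 0.813 ± 0.103 and 0.0967 ± 0.0231 FPKM (SD, n = 3 each). Its log2 change of 3.06 ± 0.28 (edgeR adjusted p = 1.2e-07) was the largest of the 9. In such bulk libraries, more cells expressing a gene and more RNA per cell cannot be told apart.

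The sums over each family show the size of the shift. The 5 GBP members together came to 181 to 194 FPKM in EMT6 KO and 88.7 to 105 FPKM in EMT6 control. The 4 IRG members together came to 25.4 to 27.5 FPKM in KO and 9.25 to 9.86 FPKM in control. The sources used here do not say how reads matching several copies were counted, so counts of neighbouring copies were also summed before testing. The 6 Gbp genes of chromosome 3 rose together by 0.89 ± 0.06 log2 units in EMT6 KO (edgeR adjusted p = 5.02e-09), and the 6 Gbp genes of chromosome 5 by 1.07 ± 0.06 (edgeR adjusted p = 2.21e-10). The 9 IRG genes of chromosome 11 rose as a sum by 1.87 ± 0.06 (edgeR adjusted p = 6.12e-13). Such a sum does not depend on how reads were divided among its genes. Single genes are less certain: Igtp shares 99.2% of its span with Irgm2 on the same strand, Gbp9 lies wholly within Gbp8 and overlaps Gbp4, and 12.7% of 50-base stretches of Gbp7, 11.8% of Igtp and 8.05% of Gbp9 recur in other genes. For Gbp3, Gbp2, Iigp1 and Irgm1 this share was 3.75%, 2.03%, 1.69% and 0.31% in that order.

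In 4T1 cells, none of the members was called higher in KO. Of the 6 that passed the low-count filter, Gbp9 was lower and 5 were not called, where 28% of all 13313 tested genes were called higher, 29% lower and 57% in either direction. The median log2 change was -0.22 over the 6 members and 0.0 over all tested genes. Gbp9 had 0.37, 0.41 and 0.31 FPKM in 4T1 KO and 0.79, 0.76 and 0.78 FPKM in 4T1 control, from 28 to 35 counts in KO and 55 to 66 counts in control. The groups did not overlap, as in 24.3% of tested genes in that direction, and the log2 change was -1.18 ± 0.22 (SE, n = 3 per group, edgeR adjusted p = 6.35e-05). Summed with its chromosome 5 neighbours, the change was -1.17 ± 0.16 (edgeR adjusted p = 1.19e-06). Gbp4, which overlaps Gbp9, was lower as well, with 0.2, 0.23 and 0.21 FPKM in 4T1 KO and 0.53, 0.52 and 0.3 FPKM in 4T1 control (log2 change -1.15 ± 0.26, edgeR adjusted p = 0.00045).

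The other members were low in 4T1 and their groups overlapped. Irgm1, the most abundant there, had 1.99, 2.04 and 2.16 FPKM in 4T1 KO and 2.18, 1.74 and 2.22 FPKM in 4T1 control (log2 change -0.07 ± 0.11, edgeR adjusted p = 0.638). Gbp2 had 0.85, 0.65 and 0.63 FPKM in KO and 0.86, 0.74 and 0.7 FPKM in control (-0.19 ± 0.27, edgeR adjusted p = 0.548). Changes of Gbp3, Irgm2 and Igtp were -0.33 ± 0.40, -0.25 ± 0.24 and -0.17 ± 0.29, with edgeR adjusted p from 0.389 to 0.632. These 3 genes had 9 to 49 counts per library, so that a change as small as that of Gbp7 in EMT6 was hardly detectable. Gbp6, Gbp7 and Iigp1 had too few counts to be tested in 4T1. Gbp7 had 15, 8 and 8 counts in KO and 21, 8 and 7 in control. Gbp6 had 1 to 4 counts in KO and 1 to 5 in control, and Iigp1 had 1 to 5 in KO and 4 to 6 in control. The sums over chromosome 3 Gbp genes and chromosome 11 IRG genes were not called in 4T1 (-0.18 ± 0.19 and -0.13 ± 0.10, edgeR adjusted p = 0.408 and 0.247).

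**Figure D2:**
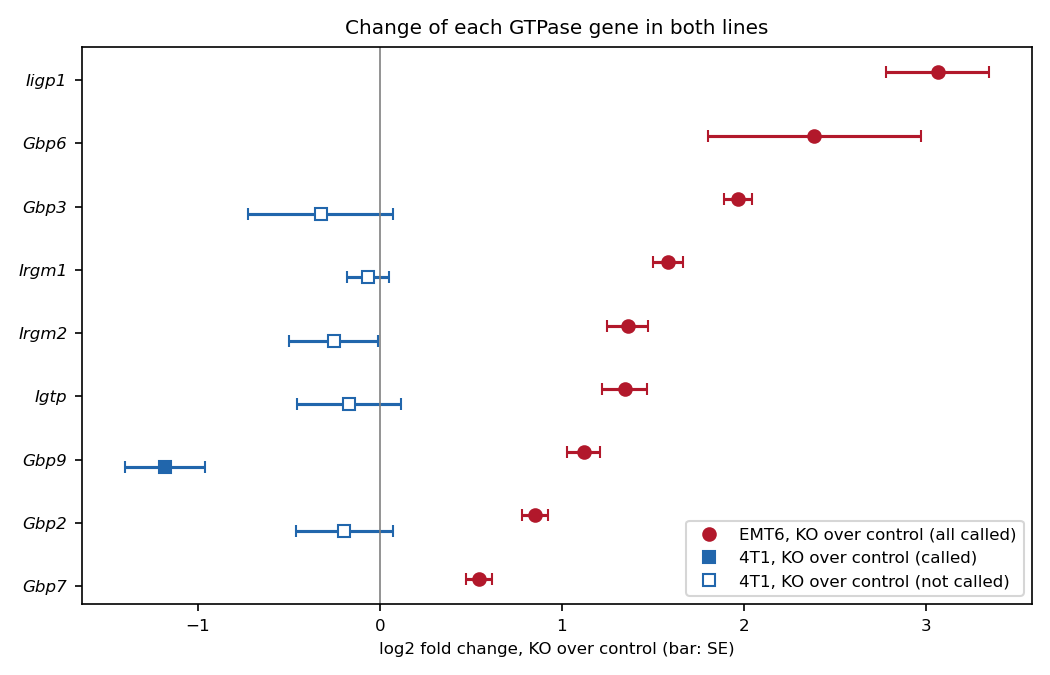
Log2 fold change of KO over control (horizontal axis) for each member in EMT6 (circles) and in 4T1 (squares, open where not called); bars are the SE of the fit. EMT6 changes run from 0.55 for Gbp7 to 3.06 for Iigp1, while the 6 genes tested in 4T1 lie at or below -0.07 and Gbp9 alone is called there; Gbp6, Gbp7 and Iigp1 have no 4T1 point.

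The difference between the lines was itself tested, as the EMT6 change minus the 4T1 change in a fit of all 12 libraries. Of the 8 members tested, 8 had a larger change in EMT6, where 26.8% of all 14301 tested genes were called in that direction, 26.6% in the other and 53.4% in either. The median difference was 1.64 log2 units over the members and -0.011 over all tested genes. Gbp9, which moved in opposite directions, differed by 2.31 ± 0.20 (edgeR adjusted p = 1.2e-10). Gbp3 differed by 2.30 ± 0.37 (edgeR adjusted p = 1.11e-05), with only 9 to 22 counts per library in 4T1 KO and 12 to 24 in 4T1 control. Irgm1, Irgm2, Igtp and Gbp2 differed by 1.66 ± 0.14, 1.62 ± 0.25, 1.53 ± 0.30 and 1.06 ± 0.23, with edgeR adjusted p from 3.67e-11 to 0.000293. Iigp1 differed by 4.30 ± 0.72 (edgeR adjusted p = 9.83e-06), but at 1 to 6 counts per 4T1 library this size is poorly determined. Gbp7 was the weakest, at 1.03 ± 0.42 (edgeR adjusted p = 0.0432). It was no longer called in 8 of 19 alternatives, and without 4T1 control replicate 1 the difference was 0.41 with an adjusted p of 0.507. Iigp1 and Gbp7 entered this fit through their EMT6 libraries, and Gbp6 did not pass its filter.

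Without the knockout, the lines already stood apart. These values share the control libraries with the changes above, so they are set beside them and not tested against them. Of 8 members tested, 7 were higher in EMT6 control than in 4T1 control, where 37.5% of 14301 tested genes were called higher, 37.2% lower and 74.7% in either direction. Gbp7 passed the filter only through its EMT6 libraries. It was 152-fold higher in EMT6 control (log2 difference 7.25 ± 0.15), Gbp2 83.6-fold (6.39 ± 0.11) and Gbp3 25.0-fold (4.65 ± 0.18). The size for Gbp7 rests on 21, 8 and 7 counts in the 4T1 control libraries, and without 4T1 control replicate 1 the log2 difference was 7.86. Gbp9 was 5.62-fold and the regulators Irgm2, Igtp and Irgm1 were 3.86-fold, 3.0-fold and 1.74-fold higher. The edgeR adjusted p of these 7 ran from 1.64e-28 to 7.47e-08. Iigp1 did not differ beyond its spread, with 0.0967 ± 0.0231 FPKM in EMT6 control and 0.0633 ± 0.0208 FPKM in 4T1 control (SD, n = 3 each; edgeR adjusted p = 0.208). As a sum, chromosome 3 Gbp genes were 73.6-fold higher in EMT6 control and chromosome 11 IRG genes 2.25-fold.

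The order of levels differed between the lines. In EMT6 KO, Gbp2 led at 115 ± 6.88 FPKM, followed by Gbp3 at 33.0 ± 2.94 and Gbp7 at 31.4 ± 2.17, which overlapped each other. Irgm1, Gbp9, Igtp and Irgm2 followed between 10.5 and 6.89 FPKM in that order, without overlap between neighbours, and Iigp1 and Gbp6 came last. In EMT6 control, Gbp7 at 21.6 ± 1.89 FPKM stood above Gbp3 at 8.47 ± 0.561 FPKM without overlap, whereas Gbp9, Irgm1, Igtp and Irgm2, between 4.31 and 2.7 FPKM, overlapped from each gene to the next. In both 4T1 groups Irgm1 was highest, at 2.06 ± 0.0874 FPKM in KO and 2.05 ± 0.266 FPKM in control, without overlap with the next gene, Igtp. Igtp, Gbp2 and Irgm2 then overlapped in 4T1 KO between 1.05 and 0.63 FPKM, as did Igtp, Gbp9, Gbp2 and Irgm2 in 4T1 control between 1.09 and 0.713 FPKM. By rank, Gbp9 was number 5 in 4T1 KO and number 3 in 4T1 control.

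Most other tested genes of both families were higher in EMT6 KO too. Of 19 other listed GBP, IRG and Mx genes, 11 were tested in EMT6, of which 10 were higher in KO, 0 were lower and Gbp8 was not called (0.37 ± 0.41, edgeR adjusted p = 0.466). Their median log2 change was 1.76, and 27.9% of all tested genes were called higher in EMT6 KO. Ifi47, which encodes an IRG, had 13.0, 13.5 and 13.9 FPKM in EMT6 KO and 0.88, 0.55 and 0.88 FPKM in EMT6 control, a log2 change of 4.13 ± 0.14 (edgeR adjusted p = 6.5e-13). The near-identical effector IRG genes Tgtp2 and Tgtp1 had 71, 74 and 52 and 17, 29 and 16 counts in KO, against 0, 1 and 3 and 0, 1 and 1 counts in control. Their fitted changes of 5.42 and 4.64 rest on those few control counts, and 86.6% and 81.2% of their 50-base stretches are shared with other genes. Gm12250 and Gm4951, further IRG genes, rose by 3.74 ± 0.54 and 2.12 ± 0.29. Tgtp1, Tgtp2 and Gm12250 passed the filter only through their KO libraries. Among the GBPs, Gbp5, which promotes inflammasome assembly in mouse macrophages, rose by 1.13 ± 0.13, Gbp4 by 1.05 ± 0.06 and Gbp2b by 0.85 ± 0.06. Gbp2b was the second most abundant family gene, at 50.3 ± 1.25 FPKM in KO and 27.8 ± 1.16 FPKM in control. Mx2, a dynamin-like antiviral GTPase, rose by 1.76 ± 0.23, and Irgq, a divergent IRG, by 0.66 ± 0.08. Gbp11 was too low to test, with 1, 5 and 3 counts in KO and 0 in each control library.

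In 4T1 only 3 of these 19 genes were tested. Irgq was higher in KO, at 6.14, 5.53 and 5.87 FPKM against 3.8, 4.42 and 4.47 FPKM in control (log2 change 0.39 ± 0.08, edgeR adjusted p = 0.000212). Gbp4 was lower, as given above, and Gbp2b was not called (-0.11 ± 0.32, edgeR adjusted p = 0.794). The counts of Tgtp1, Gbp10, Gbp11 and Irgc1 were 0 in all 6 libraries of 4T1.

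The size of the EMT6 change went with the level of the gene in control cells. Of the 20 tested GTPase genes, 10 had a mean under 1 FPKM in EMT6 control and a median log2 change of 2.73, with a range from 0.37 for Gbp8 to 5.42 for Tgtp2. The other 10, at 1 FPKM or more, had a median of 1.08 and a range from 0.55 for Gbp7 to 1.97 for Gbp3. Both quantities contain the same control libraries. Of the low genes, Gbp6, Tgtp1, Tgtp2 and Gm12250 entered the test only through their KO libraries. The relation is therefore a description and was not tested.

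**Figure D3:**
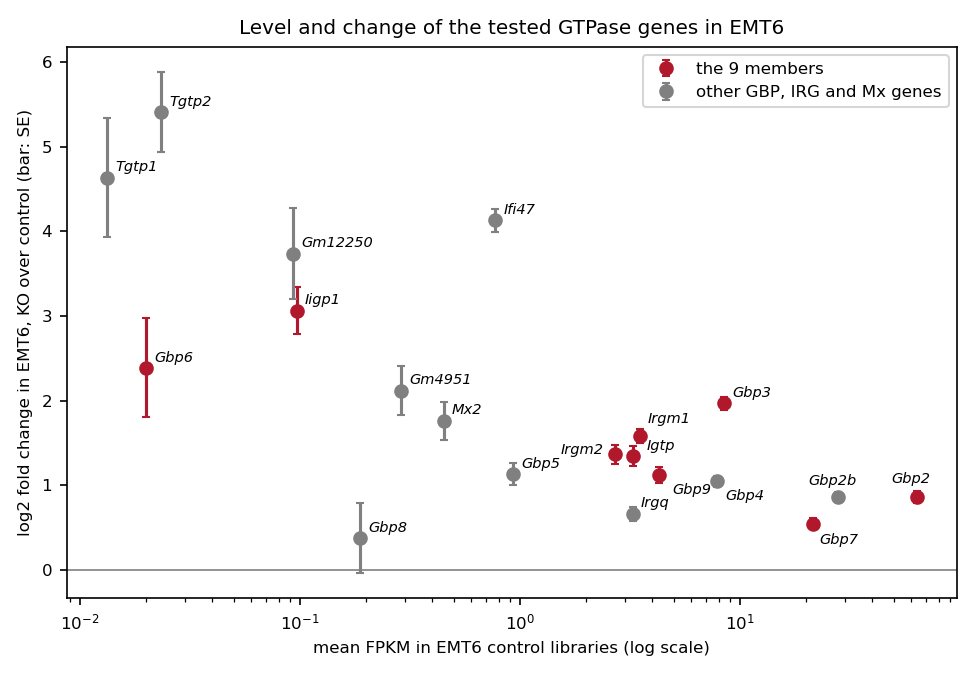
Mean FPKM in EMT6 control libraries (horizontal axis, log scale) against the log2 fold change of KO over control in EMT6 (vertical axis, bar SE) for the 9 members in red and 11 other tested GBP, IRG and Mx genes in grey. Genes under 1 FPKM in control, such as Tgtp2 at 5.42 and Iigp1 at 3.06, lie higher than abundant genes such as Gbp2 at 0.85 and Gbp7 at 0.55, and Gbp8 at 0.37 is the low exception.

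Upstream of the GTPases, interferons themselves were next to undetected. The 9 listed interferon genes summed to 0 to 1 counts per EMT6 KO library and 0 counts in EMT6 control, and to 1 to 4 counts in 4T1 KO and 0 counts in 4T1 control, so none was tested. Against totals of this depth, an expression below about 3 counts per library was not detectable. Of 9 tested receptor, JAK and STAT genes, 4 were higher and 3 lower in EMT6 KO, with a median log2 change of 0.06. Beside this and the following lists, 27.9% of all tested genes were called higher and 28.2% lower in EMT6 KO. In 4T1 KO these shares were 28% and 29%. Ifngr2, the signalling chain of the interferon-gamma receptor, rose by 1.23 ± 0.09 (edgeR adjusted p = 1.59e-08), to 8.54 ± 0.369 FPKM in KO against 3.66 ± 0.351 FPKM in control. Ifnar2, a chain of the type I receptor, fell to 12.2 ± 0.398 FPKM in KO, against 22.2 ± 1.64 FPKM in control (-0.87 ± 0.07, edgeR adjusted p = 2.77e-08). Stat2, a transcription factor of the type I interferon response, had 9.99, 10.65 and 10.45 FPKM in EMT6 KO libraries, against 5.78, 4.96 and 4.31 FPKM in EMT6 control libraries (1.06 ± 0.09, edgeR adjusted p = 5.76e-08). In 4T1, 5 of 10 tested genes of this list were higher and 2 lower, with Stat2 at 0.60 ± 0.08, Ifnar2 at 0.50 ± 0.07 and Tyk2 at 0.48 ± 0.06.

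Among interferon regulatory factors, 3 of 6 tested genes were higher in EMT6 KO and 1, Irf3 at -0.21 ± 0.08, was lower. Irf9, a DNA-binding partner of STAT proteins at response elements, rose by 1.02 ± 0.08, Irf7 by 1.04 ± 0.10 and Irf1, an activator of many GBP genes in mice, by 0.67 ± 0.07. In 4T1 1 of 7 was higher, Irf3 at 0.19 ± 0.07, a call that did not hold without a low-count filter or without 4T1 KO replicate 1 or 3 or 4T1 control replicate 2. Of 8 inhibitors of interferon signalling, 3 were higher and 5 lower in EMT6 KO. Usp18, which is itself interferon-induced and blocks the type I receptor, had 5.98, 6.2 and 5.12 FPKM in EMT6 KO and 1.05, 0.86 and 1.14 FPKM in EMT6 control (2.51 ± 0.15, edgeR adjusted p = 6.07e-10). Ptpn1 rose by 0.44 ± 0.06 and Ptpn6 fell by 0.83 ± 0.09 on the log2 scale. In 4T1, 2 of these 8 were higher and 2 lower, Pias1 by 0.42, Ptpn2 by -0.48 and Ptpn6 by -0.34 among them.

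**Figure D4:**
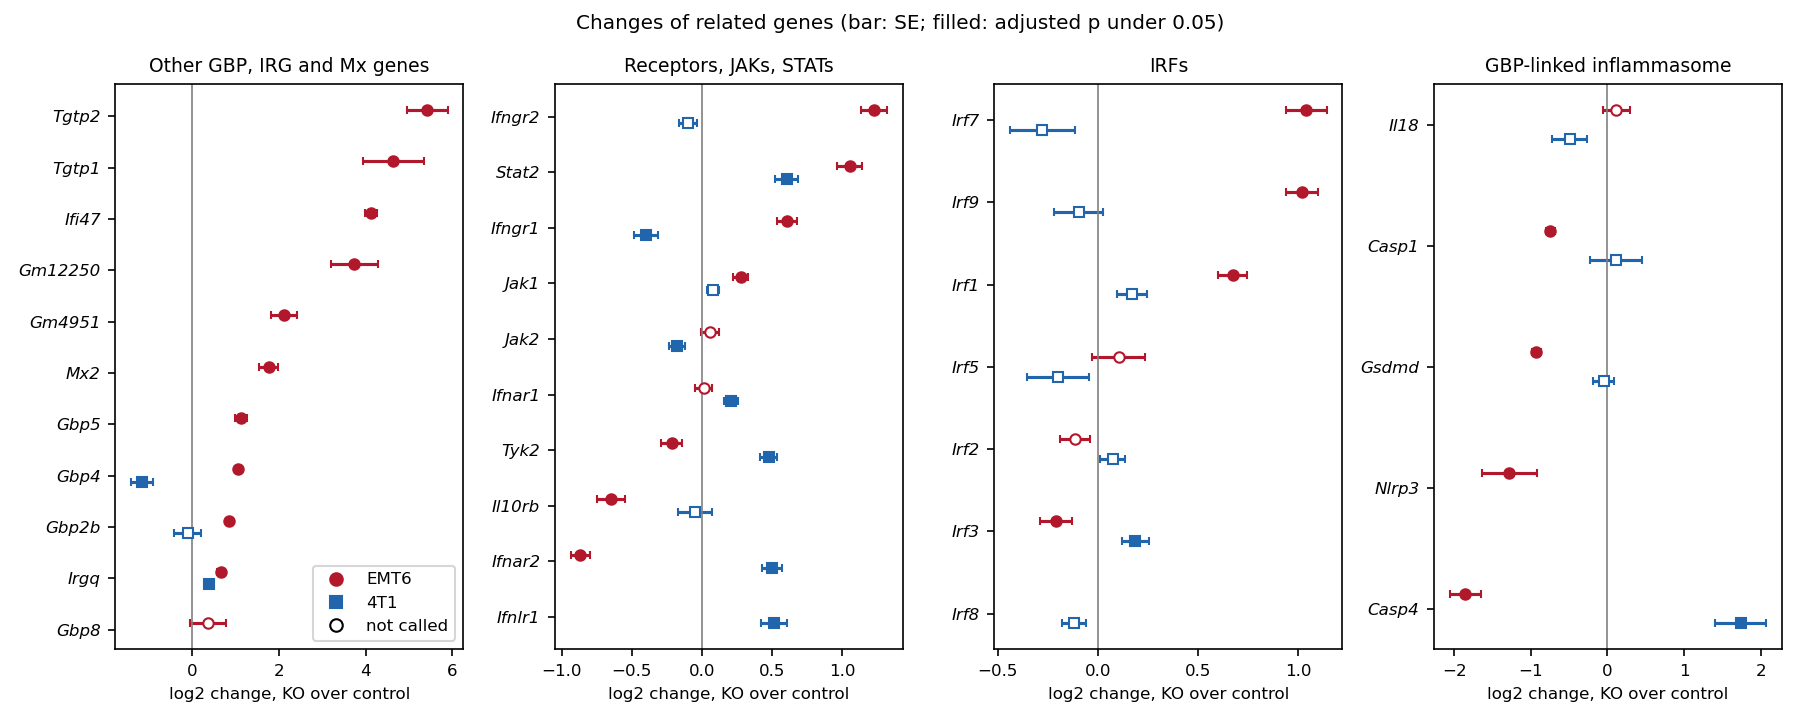
Log2 fold change of KO over control (horizontal axes) for tested genes of 4 lists in EMT6 (circles) and 4T1 (squares), filled where the adjusted p was under 0.05, with bars for the SE. Most family genes and Ifngr2, Stat2, Irf7 and Irf9 lie right of 0 in EMT6, whereas Casp4 lies at -1.85 in EMT6 and 1.74 in 4T1.

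Other interferon-responsive genes were examined beside the GTPases. Of 16 tested genes of the interferon-alpha/beta list, 15 were higher and 0 lower in EMT6 KO, with a median log2 change of 1.56. Those with the lowest adjusted p were Rtp4 at 2.79 ± 0.11, Cmpk2 at 2.42 ± 0.10 and Ifit1 at 3.21 ± 0.14. Ifit3b at 4.29 ± 0.35 and Ifit3 at 3.63 ± 0.19 had larger changes and are named after their values were seen. Ifit3b had 94, 87 and 55 counts in EMT6 KO and 2, 5 and 4 counts in EMT6 control. Its fitted change rests on those few control counts. Ifit3b passed the low-count filter only through its KO libraries, so that it had to be higher in KO to be tested. Of 10 tested genes of the interferon-gamma list, 6 were higher and 3 lower with a median of 0.55. Cxcl10, a chemokine, rose by 3.34 ± 0.26 and the immunoproteasome subunits Psmb9 and Psmb8 by 0.61 ± 0.07 and 0.48 ± 0.06. The lower genes of that list included Nos2, named after its values were seen, with 0.22, 0.73 and 0.67 FPKM in EMT6 KO and 56.4, 55.8 and 46.4 FPKM in EMT6 control. In 4T1, 2 of 14 tested interferon-alpha/beta genes were higher and 1 lower, and 4 of 12 interferon-gamma genes were higher and 3 lower. Ifit2 at 1.14 ± 0.07 and Icam1 at 1.93 ± 0.17 rose there, and Oasl1 fell by 0.36 on the log2 scale.

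Genes of the machinery that GBPs and IRGs work with showed no shared direction with them. The inflammasome genes whose activation GBPs are known to promote in macrophages went the other way in EMT6 KO, with 0 of 5 tested genes higher and 4 lower. Gsdmd, the pore-forming gasdermin, had 29.6, 27.8 and 31.9 FPKM in EMT6 KO and 55.2, 56.5 and 57.7 FPKM in EMT6 control (-0.93 ± 0.06, edgeR adjusted p = 3.26e-09). Casp1 fell by 0.74 ± 0.06 and Casp4, the sensor of cytosolic lipopolysaccharide, by 1.85 ± 0.21 on the log2 scale. In 4T1, Casp4 was the called gene of 4 tested and was higher, at 0.54, 0.49 and 0.57 FPKM in KO against 0.15, 0.16 and 0.14 FPKM in control (1.74 ± 0.34, edgeR adjusted p = 9.66e-05). The EMT6 change of Casp4 minus its 4T1 change was -3.58 (edgeR adjusted p = 5.87e-09). Of 5 prenylation enzymes, which attach the lipid anchors of some GBPs, 2 were higher and 1 lower in EMT6 KO, led by Icmt at 0.42 ± 0.07 and Fntb at 0.41 ± 0.09. In 4T1 0 were higher and 2 lower, Pggt1b at -0.44 ± 0.06 and Fnta at -0.24 ± 0.06. Of 14 ATG8 conjugation and vacuole ubiquitin genes, some of which guide GBPs and IRGs to vacuoles, 6 were higher and 4 lower in EMT6 KO. In 4T1 KO 4 of them were higher and 3 lower. Over all tested genes, 27.9% were called higher and 28.2% lower in EMT6, and 28% and 29% in 4T1. Map1lc3a rose in both lines, by 1.39 ± 0.14 in EMT6 and 1.01 ± 0.16 in 4T1, and Trim21 rose by 1.22 ± 0.14 in EMT6. The 6 higher genes in EMT6 became 3 without EMT6 KO replicate 1.

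The genes whose profile lay nearest to the members were sought over the 12 libraries, as the root mean square difference in log2 CPM, each gene centred on its own mean. The comparison profile was the mean of the 6 members tested in both lines, and 10281 genes were compared. Dhx58, an RNA helicase of the RIG-I family, was nearest at 0.286, followed by the zinc transporter Slc39a8 at 0.377 and the ubiquitin-like modifier Isg15 at 0.378. Man1c1 at 0.405 and Cpq at 0.427 came next. The members themselves lay 0.324 (Gbp9) to 1.54 (Gbp2) from their own mean. The measure takes in the distance between the lines as well as the KO changes. In EMT6 the KO changes of Dhx58, Slc39a8, Isg15, Man1c1 and Cpq were 0.72, 0.39, 1.13, 0.56 and 0.52, below the median of 1.36 over the 9 members. Their log2 differences of EMT6 control over 4T1 control were larger, at 3.55, 3.58, 3.01, 2.93 and 3.04. Dhx58 had 9.42, 10.9 and 9.63 FPKM in EMT6 KO and 5.83, 6.55 and 5.76 FPKM in EMT6 control, and 0.49 to 0.67 FPKM in the 4T1 libraries.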

How the data were processed

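Messenger RNA of 12 libraries was sequenced after bead capture, per the labels' protocols. Per the submitters' processing notes, cutadapt 1.9.1, HISAT2 2.2.1, HTSeq 0.6.1, DESeq2 (without a version) and the genome GRCm38 were used. The deposited tables hold raw read counts per gene and FPKM for each library. The deposited FPKM equalled count, total count and exonic size combined, within 0.005 for all 340146 values of each line, so both tables use 1 formula. FPKM carry no TMM scaling, whose factors ran from 0.9618 in EMT6 control replicate 2 to 1.064 in 4T1 KO replicate 3. The sources used here name neither the strand setting nor the treatment of reads with several matches. The tables' gene coordinates differ from those of GRCm38 and are not printed.

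From the counts, each line was fitted separately in R 4.3.3 with edgeR 4.0.16: filterByExpr, TMM scaling, robust quasi-likelihood test, 2-sided, adjusted by Benjamini-Hochberg over all tested genes. Line differences used all 12 libraries. SE is the absolute log2 change before shrinkage over the square root of F. The printed log2 changes are edgeR's estimates after shrinkage. The common coefficient of variation that edgeR fitted between libraries of a group was 6.73% in EMT6, 4.82% in 4T1 and 5.91% over both. This spread may be technical. The steps were tested on simulated data. Members, gene lists and tests were chosen with earlier results of these data known. Named genes were the members, Nedd4, all called family genes, up to 3 called genes of lowest adjusted p per other list and line, markers, and the 5 nearest profiles. Outside this rule, Ifit3, Ifit3b, Nos2, Gbp8, Gbp11, Gbp2b in 4T1 and Irf3 in EMT6 were named after their values were seen. Copies were examined as 50-base stretches of GENCODE M21 transcripts. Alternatives were DESeq2 1.42.0, limma-voom (limma 3.58.1), DESeq2 size factors, total-count scaling, no filter, at least 10 counts in every library of a group, a replicate block and leaving out each library. Limits from counts cover counting error only. Of the lists, 2 genes were left out of the counts and are not reported here.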

Additional observations from a re-analysis of the deposited data

Results flagged for a closer look

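For all 8 members tested in the 12-library edgeR fit, the KO change differed between EMT6 and 4T1, always with the larger change in EMT6. Over all 14301 tested genes, 26.8% were called in that direction and 53.4% in either. Gbp6 did not pass the filter of this fit. On the log2 scale the EMT6 change minus the 4T1 change was 2.31 for Gbp9, 2.30 for Gbp3, 1.66 for Irgm1, 1.62 for Irgm2, 1.53 for Igtp, 1.06 for Gbp2, 1.03 for Gbp7 and 4.30 for Iigp1. Gbp9 alone was called in opposite directions, higher in EMT6 KO and lower in 4T1 KO. Iigp1 and Gbp7 rest on 1 to 6 and 7 to 21 counts per 4T1 library, and the Gbp7 difference was lost in 8 of 19 alternatives.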

How the results depend on the processing

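Calls of the members were kept in all 117 combinations of member and alternative for EMT6, in all 78 for 4T1 and in all 152 for EMT6 control against 4T1 control. Those for EMT6 include Gbp6, which passed the low-count filter of the main fit only through its KO libraries. For the difference between the lines 144 of 152 were kept, and the 8 lost were all Gbp7, whose difference ran from 0.41 to 1.40. The library numbers gave no sign of a pairing of KO and control libraries, though 3 libraries per group cannot exclude one. Same-numbered libraries had correlations of deviations from -0.13 to -0.007 in EMT6 and -0.023 to 0.009 in 4T1, and 0 of 6 libraries in each line correlated best with its own number. With the replicate block 9 members were higher and 0 lower in EMT6. Of all 12890 tested genes, 3400 were then called higher and 3430 lower, which is 6830 against 7224 without the block. Scaling by total counts moved the share of called genes that were higher in 4T1 KO to 61.2%, against 49.1% with TMM, and left all members' calls there as they were. Without a low-count filter the median change of all 4T1 genes was 0.116. Irf3, the lower regulatory factor in EMT6, was not called with DESeq2, without the filter, with the block, or without EMT6 KO replicate 1, 2 or 3 or EMT6 control replicate 1. Man1c1, the Irgq and Gbp8 line differences and several counts of 1 to 3 genes in the other lists also shifted; no called value changed direction. With 9 to 49 counts per library, small changes of Gbp3, Irgm2 and Igtp in 4T1 were not detectable.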
